A study of Mus musculus with 12 samples.

Results

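The simple epithelial keratins Krt7, Krt8, Krt18 and Krt19 were taken as all probes that carry 1 of these gene names on the array, which gave 5 probes of 4 genes among 55681 non-control probes. After probes not above background were set aside, 30885 probes of 22593 gene names were tested, and all 5 keratin probes were among them. RNA of mouse embryonic stem cells, the self-renewing cells derived from the early embryo, was hybridised to 12 one-colour arrays, 4 in each of 3 groups. Id1KO_Zrf1KD cells carried the Id1 knockout and in addition a lentiviral short hairpin RNA against Zrf1, with stable cells selected in puromycin. Id1KO cells carried the knockout alone, and WT cells were wild type. Id1 is an inhibitor of basic helix-loop-helix factors, and Zrf1 (array name Dnajc2) is a ribosome-associated chaperone that also acts on chromatin. All cells grew in GMEM with fetal bovine serum and leukaemia inhibitory factor. The labels name 1 source for the wild-type and knockout lines and do not say how many clones were used. Id1KO cells with a control hairpin were not analysed here, so the hairpin's target, the infection and the selection cannot be told apart in any comparison with Id1KO_Zrf1KD.

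Keratins are intermediate filament proteins that assemble only as pairs of a type II protein (here Krt7 and Krt8) with a type I protein (here Krt18 and Krt19). Krt8 and Krt18 are the first keratins of the mouse embryo and mark trophectoderm and simple epithelia, joined there by Krt19 and, in ducts and trophoblast, by Krt7. Undifferentiated embryonic stem cells are usually described as low in keratin filaments, which appear as the cells differentiate.

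Each array level rests on a 60-base probe, and the probes are shown because the values below are those of these stretches of RNA and of no other part of the transcript. Krt7 was read at chr15:101253718-101253777 (mm9, plus strand), Krt18 at chr15:101862341-101862400 (plus strand), Krt19 at chr11:100002392-100002451 (minus strand) and Krt8 at chr15:101828827-101828886 (minus strand).
Krt7: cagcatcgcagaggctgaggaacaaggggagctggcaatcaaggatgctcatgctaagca
Krt18: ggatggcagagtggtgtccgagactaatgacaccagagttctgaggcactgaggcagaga
Krt19: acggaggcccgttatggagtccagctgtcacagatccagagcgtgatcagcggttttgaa
Krt8, A_55_P2128501: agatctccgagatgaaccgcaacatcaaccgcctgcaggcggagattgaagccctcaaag
The other Krt8 probe, A_66_P128079, lies at chr15:101827138-101827197 (minus strand), and bases 21 to 50 of it are given with a polyadenylation signal in capitals. Per the files, it was designed on a cDNA record and not on the RefSeq transcript that the first Krt8 probe targets, and as the brighter of the pair it gives the Krt8 gene value.
Krt8, A_66_P128079: tgtattttctaaAATAAAgcctcagctggc
The longest run that any of the 5 probes shared with a probe of another gene name was 13 to 15 of the 60 bases. RefSeq lists a Krt8 pseudogene, and its sequence was not compared with the probes. Whether such a copy adds to the signal at either Krt8 probe is thus not known here.

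The targeted genes were read before the keratins. Levels are log2 signals relative to the 75th percentile of the same array, so a level of 0 equals that percentile. Zrf1 (Dnajc2) had a mean level of -0.27 ± 0.08 in Id1KO_Zrf1KD, against 1.89 ± 0.11 in Id1KO and 1.995 ± 0.12 in WT (SD, n = 4 each), which was 4.47-fold lower in Id1KO_Zrf1KD than in Id1KO. Id1 averaged 0.68 ± 0.16 in Id1KO_Zrf1KD, 1.23 ± 0.31 in Id1KO and 0.86 ± 0.20 in WT, so it was not lower in the knockout, and whether the probe lies in the deleted part is not known here. Between 54.8% and 59.3% of spots were well above background on each array. The arrays' 75th percentiles of signal were 554.0 to 596.5 in Id1KO_Zrf1KD, 393.3 to 491.8 in Id1KO and 440.7 to 550.2 in WT. The arrays lay on 3 slides that each held all groups. All 5 keratin probes were well above background on all 12 arrays, and no spot was saturated.

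Krt8, the type II partner of Krt18, had the largest difference of the 4 genes between Id1KO_Zrf1KD and Id1KO. At the brighter probe, A_66_P128079, its level was 3.34, 3.36, 3.30 and 3.27 in Id1KO_Zrf1KD, 1.72, 1.57, 1.53 and 1.52 in Id1KO, and 2.26, 2.35, 2.48 and 2.25 in WT. The 3 groups did not overlap, with Id1KO_Zrf1KD highest and Id1KO lowest. Krt8 was 3.32-fold higher in Id1KO_Zrf1KD than in Id1KO (log2 difference 1.73 ± 0.06 SE, adjusted p = 1.6e-09, limma), with values of 1.77, 1.85 and 1.65 within slides 1, 2 and 3. It was 1.68-fold lower in Id1KO than in WT (-0.75 ± 0.06, adjusted p = 8.2e-07, limma), with -0.73, -0.84 and -0.72 within the slides. Id1KO_Zrf1KD also stood 1.97-fold above WT (0.98 ± 0.06, adjusted p = 1.1e-07, limma).

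The Krt8 probe A_55_P2128501, further from the end of the transcript, gave the same order of groups. Its level was 2.36, 2.42, 2.31 and 2.39 in Id1KO_Zrf1KD, 0.46, 0.34, 0.51 and 0.32 in Id1KO, and 1.50, 1.60, 1.31 and 1.36 in WT. Here too no array of a group reached the values of another group. The log2 differences were 1.96 for Id1KO_Zrf1KD minus Id1KO (3.90-fold), -1.04 for Id1KO minus WT (2.05-fold) and 0.93 for Id1KO_Zrf1KD minus WT (1.90-fold). The 2 probes were also set against each other within each array, a test chosen after their values were seen. A_55_P2128501 gave the larger step between Id1KO_Zrf1KD and Id1KO by 0.23 log2 units (p = 0.0286, exact permutation test, two-sided, the smallest p that 4 against 4 arrays allow). Between Id1KO and WT the probes differed by -0.28 (exact p = 0.0571), and between Id1KO_Zrf1KD and WT by -0.05 (exact p = 0.714).

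Krt18, the type I partner of Krt8, was higher in Id1KO_Zrf1KD than in either other group. Its level was 4.92, 4.91, 4.90 and 4.92 in Id1KO_Zrf1KD, 3.90, 3.98, 3.92 and 4.04 in Id1KO, and 4.09, 4.05, 4.16 and 4.04 in WT. The Id1KO_Zrf1KD arrays lay close together and above all others, while the Id1KO and WT arrays overlapped. The difference was 0.95 ± 0.04 against Id1KO (1.94-fold, adjusted p = 8.9e-09, limma; 0.996, 0.87 and 0.96 within slides) and 0.83 ± 0.04 against WT (1.77-fold, adjusted p = 2.7e-08, limma). Id1KO minus WT was -0.13 ± 0.04 (1.09-fold, adjusted p = 0.022, limma), with -0.17, -0.0048 and -0.17 within slides 1, 2 and 3. That small difference lost its call in several other fits, among them the 2 groups fitted alone (adjusted p = 0.060).

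Krt19, the type I keratin without a tail domain, was lowest in Id1KO. Its level was 1.39, 1.29, 1.12 and 1.28 in Id1KO_Zrf1KD, 0.66, 0.51, 0.72 and 0.62 in Id1KO, and 1.50, 1.42, 1.35 and 1.34 in WT. The Id1KO arrays lay below all others, and the other groups overlapped. Krt19 was 1.56-fold higher in Id1KO_Zrf1KD than in Id1KO (0.64 ± 0.07, adjusted p = 5.9e-06, limma; 0.61, 0.66 and 0.53 within slides) and 1.71-fold lower in Id1KO than in WT (-0.77 ± 0.07, adjusted p = 1.1e-06, limma; -0.78, -0.80 and -0.76 within slides). Id1KO_Zrf1KD minus WT was -0.13 (95% interval -0.28 to 0.01, adjusted p = 0.10, limma), and it passed the threshold with slide as a block (-0.17, adjusted p = 0.0079).

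Krt7, a type II keratin of ducts and trophoblast, lay below the 75th percentile on every array. Its level was -1.53, -1.55, -1.75 and -1.33 in Id1KO_Zrf1KD, -2.01, -1.82, -1.72 and -1.77 in Id1KO, and -1.33, -1.26, -1.35 and -1.63 in WT. Id1KO lay below WT on every array, whereas Id1KO_Zrf1KD overlapped both groups. Krt7 was 1.35-fold lower in Id1KO than in WT (-0.44 ± 0.11, adjusted p = 0.0030, limma; -0.39, -0.51 and -0.43 within slides). It was 1.23-fold higher in Id1KO_Zrf1KD than in Id1KO (0.29 ± 0.11, adjusted p = 0.027, limma; 0.29, 0.23 and 0.16 within slides), but with the other background correction, normexp, this was 0.14 (adjusted p = 0.17) and no longer passed. Id1KO_Zrf1KD minus WT was -0.14 (95% interval -0.38 to 0.09, adjusted p = 0.25, limma), and -0.20 with slide as a block (adjusted p = 0.047).

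**Figure D1:**
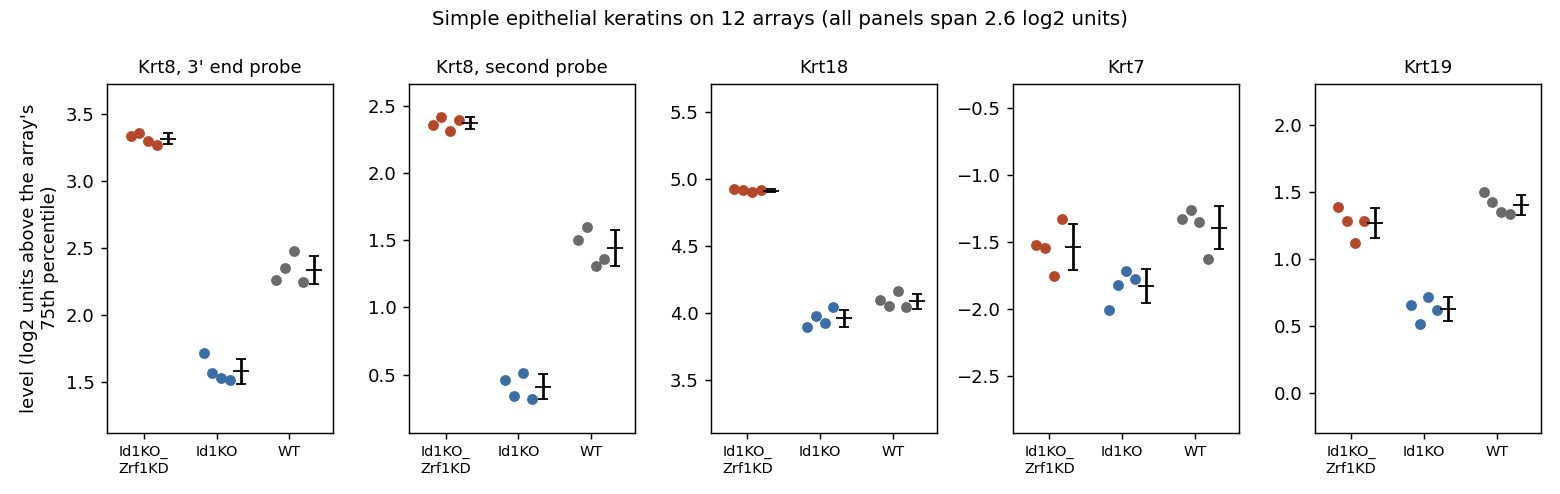
Level of each keratin probe on each of the 12 arrays (points), as log2 signal relative to the array's 75th percentile, by group, with the mean and SD (bars). Id1KO_Zrf1KD is highest for both Krt8 probes and for Krt18, and Id1KO is lowest for Krt8 and Krt19.

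All 4 keratins were called higher in Id1KO_Zrf1KD than in Id1KO, where 72.1% of all genes were called in either direction, 32.3% higher and 39.8% lower. All 4 were called lower in Id1KO than in WT, where 72% of all genes were called, 29.6% lower and 42.5% higher. In Id1KO_Zrf1KD minus WT, Krt8 and Krt18 were called higher and Krt7 and Krt19 were not called, against 64.6% of all genes called, 32.4% higher and 32.2% lower. The Id1KO arrays enter the first and the second of these comparisons with opposite signs, so the counts are not independent of each other. Groups did not overlap for Krt8, Krt18 and Krt19 in Id1KO_Zrf1KD against Id1KO (67.1% of genes), for Krt8 and Krt18 in Id1KO_Zrf1KD against WT (60.9% of genes) and for Krt7, Krt8 and Krt19 in Id1KO against WT (65.8% of genes).

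The median log2 difference of all genes was -0.09 in Id1KO_Zrf1KD minus Id1KO and 0.15 in Id1KO minus WT on this scale, against 0.0025 and 0.01 in the authors' deposited values. Relative to those medians, the differences in Id1KO_Zrf1KD minus Id1KO were 1.82 for Krt8, 1.04 for Krt18, 0.73 for Krt19 and 0.39 for Krt7. In Id1KO minus WT they were -0.90 for Krt8, -0.28 for Krt18, -0.92 for Krt19 and -0.59 for Krt7. Of all genes, 97.5% had a lower log2 difference than Krt8 in Id1KO_Zrf1KD minus Id1KO, 92.1% a lower one than Krt18, 85.8% a lower one than Krt19 and 71.2% a lower one than Krt7. With slide as a block, Id1KO_Zrf1KD minus Id1KO was 1.75 for Krt8, 0.95 for Krt18, 0.60 for Krt19 and 0.23 for Krt7, and all 4 passed. The arrays measure RNA of whole cultures, in which more cells of a type and more RNA per cell cannot be told apart.

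**Figure D2:**
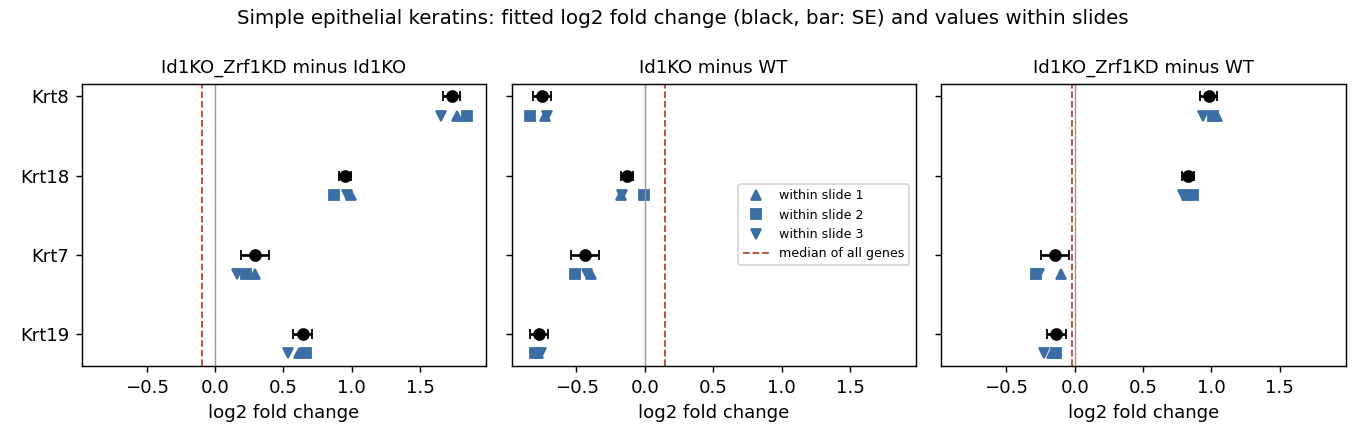
Fitted log2 difference of each keratin (black point, bar: SE) and its values within slides 1, 2 and 3 (blue symbols) in the 3 comparisons, with the median of all genes as a dashed line. Krt8 and Krt18 lie right of 0 in Id1KO_Zrf1KD against both other groups, while Krt7 and Krt19 lie right of 0 only against Id1KO.

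Because a type II keratin needs a type I partner, the change of each type II gene was set against that of each type I gene on the same arrays, which gave 4 pairs in 3 comparisons. P-values are from two-sided exact permutation tests, adjusted over these 12, with 0.0429 the lowest adjusted value reached. That value rests on the smallest p that 4 against 4 arrays allow, whatever the size of the difference. Pairs of other genes were not tested, so the share of pairs that would pass is not known. Of single genes, 67.1% did not overlap in Id1KO_Zrf1KD against Id1KO, 65.8% in Id1KO against WT and 60.9% in Id1KO_Zrf1KD against WT. In Id1KO_Zrf1KD against Id1KO, Krt8 changed more than Krt18 by 0.78 log2 units and more than Krt19 by 1.09 (exact test, adjusted p = 0.0429 for both). Krt7 changed less than Krt18 by 0.66 (difference -0.66, exact test, adjusted p = 0.0429), and its difference from Krt19 was -0.35 (exact test, adjusted p = 0.0686).

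In Id1KO against WT the balance between Krt8 and Krt18 moved the other way, by -0.62 (exact test, adjusted p = 0.0429), whereas Krt8 and Krt19 differed by 0.02 (exact test, adjusted p = 0.935). The Krt7 to Krt18 balance was -0.31 (exact test, adjusted p = 0.0686) and the Krt7 to Krt19 balance 0.34 (exact test, adjusted p = 0.0429). In Id1KO_Zrf1KD against WT, the log2 difference of Krt8 was larger than that of Krt18 by 0.16 and than that of Krt19 by 1.11 (exact test, adjusted p = 0.0429 for both). Krt7 fell relative to Krt18 by 0.97 (exact test, adjusted p = 0.0429), and relative to Krt19 the difference was -0.01 (exact test, adjusted p = 0.943). The Krt8 to Krt18 balance was within 0.16 log2 units of WT in Id1KO_Zrf1KD and lowest in Id1KO.

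**Figure D3:**
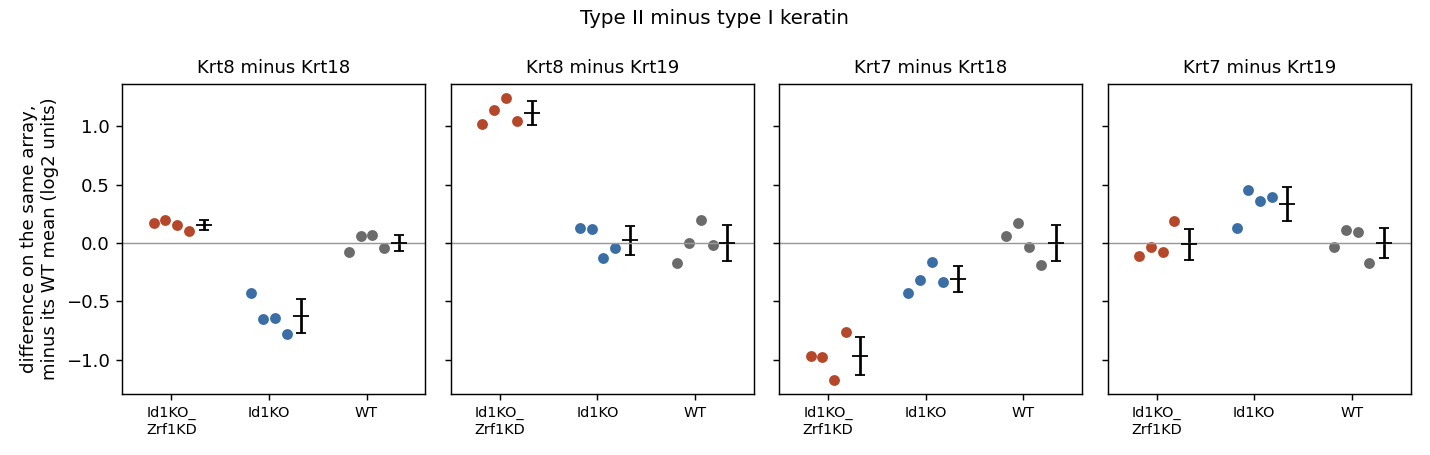
Log2 difference between a type II and a type I keratin on the same array, set to 0 at its WT mean, by group (points: arrays; bars: mean and SD). Krt8 minus Krt18 is lowest in Id1KO, and Krt8 minus Krt19 is near 0 in Id1KO and about 1.11 higher in Id1KO_Zrf1KD than in WT.

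Across the 12 arrays, each gene centred on its own mean, Krt7 and Krt19 lay closest among the keratin pairs (root mean square difference 0.20 log2 units), then Krt8 and Krt18 (0.35), and Krt7 and Krt8 lay farthest apart (0.64). Among 13518 other genes with a symbol, 2.61% lay closer to Krt8 than Krt18 did, and 10.9% lay closer to Krt7 than Krt19 did. For these pairs the shares as seen from Krt18 and from Krt19, which can differ, were not counted. Most like Krt8 of the 13518 were Prnp, the prion protein (0.092), Phlda3, Plin2, a lipid droplet coat protein, Prdm2 and Adamts2, a procollagen peptidase. Krt18 was nearest to Hif1an (0.061), an asparagine hydroxylase, then Cops8, D1Pas1, Zc3h4 and Zfp622. Krt19 was nearest to Cyb5r3 (0.042), a cytochrome b5 reductase, then Slc10a3, Pdia5, D17Wsu92e and Esrrb, a nuclear receptor of stem cell self-renewal. Krt7 was nearest to Tnfrsf22 (0.075), Tepp, Bbx, Nkain1 and Yipf2. These distances are descriptions over the same 12 arrays, which share their 3 groups.

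The array named 50 keratin genes, of which 24 were tested, the 4 simple epithelial ones and 20 others, and 26 were not well above background on all 4 arrays of any group. Of the 20 others, 8 were called higher and 2 lower in Id1KO_Zrf1KD than in Id1KO (32.3% and 39.8% of all genes). Their median was 0.12 against -0.09 for all genes. With normexp these were 6 higher and 3 lower with a median of -0.04, and both quantile normalization and the deposited values gave 10 higher and 1 lower. Between Id1KO and WT, 4 were higher and 7 lower (42.5% and 29.6% of all genes), with a median of -0.07 against 0.15 for all genes. With normexp 6 were higher and 7 lower with a median of 0.17.

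Several of the others also had their lowest mean level in Id1KO. Krt85, a hair keratin, was 2.65-fold higher in Id1KO_Zrf1KD than in Id1KO (adjusted p = 4.3e-09, limma) and 1.70-fold lower in Id1KO than in WT. Krt42 was 2.34-fold higher and then 2.51-fold lower in the same comparisons, Krt79 1.75-fold higher and 1.26-fold lower, and Krt23 1.36-fold higher and 1.37-fold lower. Krt17, a keratin of stressed and basal epithelium, was 1.61-fold higher in Id1KO_Zrf1KD than in Id1KO and 5.51-fold lower in Id1KO than in WT (adjusted p = 6.0e-11, limma). Krt20, an intestinal and urothelial keratin, was 2.99-fold higher in Id1KO_Zrf1KD than in Id1KO (1.79-fold at the smallest under another scaling). Unlike the others named here, its mean on this scale was lowest in WT, and its Id1KO minus WT difference of 0.17 did not pass.

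Other keratins took different courses. Krt5, a basal keratin, was 2.67-fold higher in Id1KO_Zrf1KD than in Id1KO (adjusted p = 0.026, limma), but under another scaling its fold was as small as 1.21 and its adjusted p as high as 0.068. Krt71 was 1.38-fold higher in that comparison (as little as 1.12-fold, adjusted p up to 0.14, under another scaling) and 2.21-fold higher in Id1KO than in WT (as little as 1.29-fold). Krt222 was 2.83-fold lower in Id1KO_Zrf1KD than in Id1KO and 2.03-fold higher in Id1KO than in WT, and Krt73 was 1.37-fold lower in the first comparison (adjusted p up to 0.10 under another scaling). Krt10, a keratin of differentiated epidermis, differed by -0.02 between Id1KO_Zrf1KD and Id1KO (adjusted p = 0.72, limma) and was 2.65-fold higher in Id1KO than in WT. Krt28 was 3.65-fold higher in Id1KO than in WT (as little as 1.71-fold under another scaling), Krt13 3.02-fold lower (as little as 1.44-fold) and Krt16 1.62-fold lower. Krt2, Krt14, Krt27, Krt31, Krt80 and Krt81 did not pass in either comparison, although Krt14 passed in the first under 2 other scalings. Krt2 passed in both with normexp (log2 differences -0.69 and 0.74), and Krt27 was lower in the second under 2 other scalings.

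**Figure D4:**
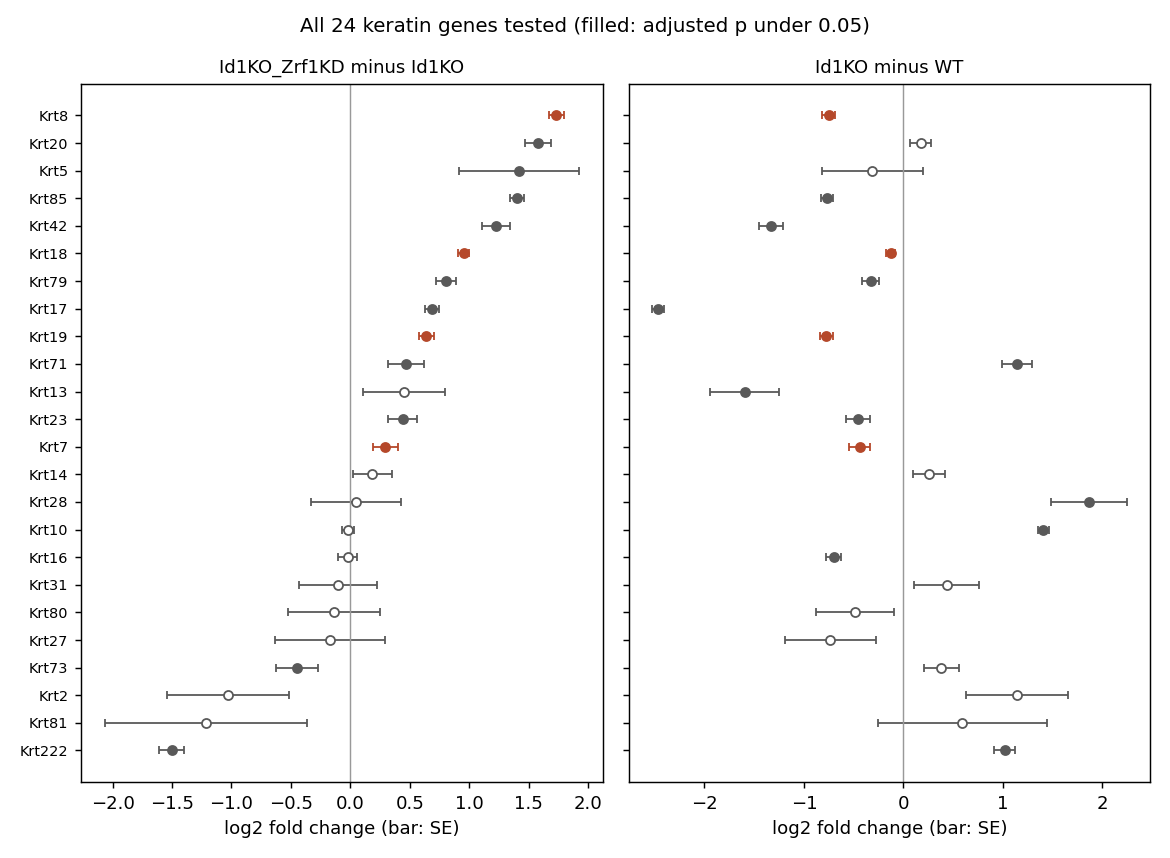
Log2 difference (point, bar: SE) of the 24 tested keratin genes in Id1KO_Zrf1KD minus Id1KO and Id1KO minus WT, ordered by the first, with the simple epithelial keratins in red and filled points for adjusted p under 0.05. Krt8 (1.73) lies at the top of the first comparison and Krt222 (-1.50) at the bottom, but with quantile normalization Krt5 (1.86) and Krt20 (1.85) lie above Krt8 (1.65).

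Intermediate filaments other than keratins were called higher for 10 and lower for 3 of 15 tested genes in Id1KO_Zrf1KD against Id1KO (median 0.64). They were higher for 2 and lower for 12 in Id1KO against WT (median -0.53). The shares of all genes were 32.3% higher and 39.8% lower in the first comparison (median -0.09). In the second they were 42.5% higher and 29.6% lower (median 0.15). Vim, the filament of mesenchymal cells, was 1.97-fold higher in the first comparison and 1.19-fold lower in the second. Des, the muscle filament, was 1.93-fold higher and 2.16-fold lower, and Lmna, a nuclear lamin, 2.17-fold higher and 1.54-fold lower. Nefl, a neurofilament, was 1.51-fold higher and 2.15-fold lower. Nefm was 3.64-fold higher (1.97-fold at the smallest under another scaling) and 5.48-fold lower (2.74-fold at the smallest). Ina, the neuronal filament internexin, went against them, 1.58-fold lower and 3.54-fold higher.

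Genes that tie keratins to desmosomes and to other filaments were called higher for 8 and lower for 1 of 16 in Id1KO_Zrf1KD against Id1KO (median 0.30). They were higher for 0 and lower for 7 in Id1KO against WT (median -0.13). The shares of all genes were 32.3% higher and 39.8% lower in the first comparison (median -0.09). In the second they were 42.5% higher and 29.6% lower (median 0.15). Plec, the cytolinker plectin, was 2.47-fold higher in the first comparison (adjusted p = 9.2e-09, limma) and 2.25-fold lower in the second. Dsp, the desmosomal plaque protein that binds keratins, was 1.51-fold higher and 3.59-fold lower, and Dsg2, a desmosomal cadherin, 1.66-fold higher and 2.69-fold lower. Ppl, periplakin, was 1.31-fold higher and 2.16-fold lower. Jup, plakoglobin, was 1.77-fold higher and Pkp2, plakophilin, 1.56-fold higher in the first comparison, and neither passed in the second.

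Epithelial junction and surface genes were called higher for 6 and lower for 8 of 21 in Id1KO_Zrf1KD against Id1KO (median -0.01). This was near the shares of all genes, 32.3% higher and 39.8% lower (median -0.09). In Id1KO against WT, 8 were higher and 9 lower (median -0.08). There 42.5% of all genes were higher and 29.6% lower (median 0.15). With the deposited values 4 were higher and 9 lower in the second comparison. Rab25, an epithelial trafficking GTPase, was 2.55-fold lower in Id1KO_Zrf1KD than in Id1KO and 2.84-fold higher in Id1KO than in WT. Esrp1, an epithelial splicing factor, was 2.10-fold lower and 2.49-fold higher, and Epcam, an adhesion molecule of epithelia and stem cells, 1.62-fold lower and 1.58-fold higher. These 3 genes ran opposite to Krt8. Marveld3, a tight junction protein, was 2.35-fold lower in the first comparison. St14, matriptase, was 1.24-fold higher (as little as 1.16-fold, adjusted p up to 0.054, under another scaling) and 2.16-fold lower.

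Transcription factors of epithelia and trophoblast were called higher for 12 and lower for 3 of 17 in Id1KO_Zrf1KD against Id1KO (median 0.56). They were higher for 3 and lower for 11 in Id1KO against WT (median -1.07). The shares of all genes were 32.3% higher and 39.8% lower in the first comparison (median -0.09). In the second they were 42.5% higher and 29.6% lower (median 0.15). Among the listed factors, Cdx2 was tested only through the Id1KO_Zrf1KD arrays, so the filter favoured a higher call for it. Klf5 was 2.71-fold higher in the first comparison and did not pass in the second. Gata3, a trophoblast factor, was 6.31-fold higher (2.47-fold at the smallest under another scaling) and 6.95-fold lower (2.65-fold at the smallest). Ets2 was 1.86-fold higher and 2.87-fold lower, Tcfap2c 1.51-fold higher and 1.91-fold lower, and Grhl3 1.17-fold higher and 2.19-fold lower. Trp63, the factor of stratified epithelium, was 1.15-fold higher in the first comparison and 2.97-fold higher in the second. Cdx2, Elf5, Gata3 and Tcfap2c also stand among the trophoblast markers below, Hnf4a among the extraembryonic endoderm markers and Trp63 among the stratified epithelium markers. The counts of these lists are therefore not separate from each other.

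AP-1 factors, together with Ets proteins, are known to act on an intron enhancer of human KRT18. They were called higher for 7 and lower for 1 of 9 in Id1KO_Zrf1KD against Id1KO (median 2.55). The shares of all genes there were 32.3% higher and 39.8% lower (median -0.09). Among the AP-1 factors, Fosb was tested only through the Id1KO_Zrf1KD arrays, so the filter favoured a higher call for it. Jun was 5.87-fold higher, Atf3 3.08-fold, Junb 3.12-fold, Fos 8.01-fold (3.46-fold at the smallest under another scaling) and Fosl1 8.42-fold (2.83-fold at the smallest). Batf was 2.49-fold lower (1.41-fold at the smallest), and Jund differed by 0.07 (adjusted p = 0.44, limma). Between Id1KO and WT, 3 were higher and 3 lower (42.5% and 29.6% of all genes), with a median of 0.12 against 0.15 for all genes. With quantile normalization 1 was higher and 4 lower, with a median of -0.15. Jund was 1.59-fold lower and Batf 3.64-fold higher (1.63-fold at the smallest) in that comparison.

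Markers of other cell types that such cultures can hold moved with the groups, and their part in the keratin differences was not tested. Levels of the 17 extraembryonic endoderm markers on the array were summed in units of the array's 75th percentile. The sum was 411 to 425 in Id1KO_Zrf1KD, 126 to 133 in Id1KO and 222 to 235 in WT. Of the tested markers, 16 of 16 were higher in Id1KO_Zrf1KD than in Id1KO (32.3% of all genes). In that comparison Lama1 was 5.01-fold, Lamb1 2.88-fold, Col4a2 5.67-fold and Sparc 2.89-fold higher, all of them basement membrane proteins or proteins that bind it. In Id1KO against WT, 7 markers were higher and 7 lower (42.5% and 29.6% of all genes). Lama1 was lower there by 1.91-fold, Lamb1 by 1.10-fold, Col4a2 by 2.44-fold and Sparc by 1.91-fold. The endocytic genes Cubn, Amn and Dab2 were 3.73-fold, 3.12-fold and 5.06-fold higher in Id1KO than in WT (Dab2 3.14-fold at the smallest under another scaling) and 4.35-fold, 3.06-fold and 3.05-fold higher in Id1KO_Zrf1KD than in Id1KO. Apoa1 was not well above background in any group, nor were Afp in Id1KO and WT and Ttr in WT. Afp was thus tested only through the Id1KO_Zrf1KD arrays, so the filter favoured a higher call for it.

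Trophoblast markers were higher for 8 and lower for 2 of 10 in Id1KO_Zrf1KD than in Id1KO (32.3% and 39.8% of all genes). They were higher for 1 and lower for 8 in Id1KO than in WT (42.5% and 29.6% of all genes). Their summed level was lowest in Id1KO_Zrf1KD, at 36.9 to 38.9, against 46.3 to 55.8 in Id1KO and 51.3 to 55.5 in WT. Such a sum is ruled by its brightest genes, and here it was lower although 8 of the 10 genes were higher than in Id1KO. Tead4 was 5.05-fold higher in Id1KO_Zrf1KD than in Id1KO (3.13-fold at the smallest under another scaling) and 2.19-fold lower in Id1KO than in WT, and Esx1 3.38-fold higher and 6.29-fold lower. Ascl2 was lower in both, by 1.17-fold and 1.97-fold. Tpbpa was not well above background in any group, Cdx2 was well above it on all 4 Id1KO_Zrf1KD arrays and on none of the others, and Elf5 and Prl3d1 were on no array of Id1KO. Cdx2 was thus tested only through the Id1KO_Zrf1KD arrays, so the filter favoured a higher call for it.

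Sums of fibroblast markers were 115 to 122 in Id1KO_Zrf1KD, 26.7 to 28.2 in Id1KO and 34.2 to 37.0 in WT. These markers were higher for 12 of 12 genes in Id1KO_Zrf1KD than in Id1KO (32.3% of all genes). Col1a2 was 7.26-fold, Fbln2 7.02-fold, Acta2 3.99-fold and Lox 11.6-fold higher in that comparison (Lox 6.17-fold at the smallest under another scaling), with smaller steps for Pdgfrb (2.27-fold) and S100a4 (log2 difference 0.38). In Id1KO against WT, 2 were higher and 7 lower (42.5% and 29.6% of all genes). There S100a4 was 6.33-fold and Acta2 1.42-fold higher, and Pdgfrb 2.95-fold, Fbln2 2.33-fold, Lox 2.28-fold and Col1a2 1.49-fold lower. Lum was not well above background in Id1KO or WT. It was tested only through the Id1KO_Zrf1KD arrays, so the filter favoured a higher call for it. Sums of stratified epithelium markers were 29.3 to 31.1 in Id1KO_Zrf1KD, 20.6 to 25.6 in Id1KO and 8.10 to 9.04 in WT, and were mostly Trp63. The mean log2 level of Trp63 was 4.66 in Id1KO_Zrf1KD, 4.46 in Id1KO and 2.89 in WT. Stratified epithelium markers were higher for 4 and lower for 0 of 7 in Id1KO_Zrf1KD than in Id1KO (32.3% and 39.8% of all genes). Under the quantile and deposited scalings 6 were higher in that comparison. Lor, a cornified envelope protein, was 16.2-fold higher (7.68-fold at the smallest under another scaling) and Sfn 3.09-fold higher. Dsg1a and Krt1 were not well above background in any group. Krt1, Krt5, Krt10 and Krt14 of this list also stand among the other keratins. Embryonic stem cell markers were well above background in all groups, 11 of 11 genes, with sums of 943 to 962 in Id1KO_Zrf1KD, 1133 to 1261 in Id1KO and 1043 to 1190 in WT. Of these 11, 6 were higher and 3 lower in Id1KO_Zrf1KD than in Id1KO (32.3% and 39.8% of all genes). In Id1KO against WT, 4 were higher and 5 lower (42.5% and 29.6% of all genes). Nanog was 1.29-fold, Zfp42 1.21-fold and Esrrb 1.57-fold higher in the first comparison, and 2.02-fold, 2.03-fold and 1.67-fold lower in the second. Sall4 was 1.60-fold higher in the first comparison and did not pass in the second. Tdgf1 went the other way, 1.94-fold lower and 1.72-fold higher. Dppa5a was 1.59-fold lower in the first comparison (as little as 1.07-fold, adjusted p up to 0.12, under another scaling) and 1.42-fold higher in the second, where it turned to -0.05 under quantile normalization and -0.09 in the deposited values (log2 differences).

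Krt8 and Krt18 are neighbours on chromosome 15 in RefSeq order, at the end of the type II cluster, and Krt7 lies in the same cluster, while Krt19 lies in the type I cluster on chromosome 11. The genes next to them were looked up with a rule chosen after the data were seen. Eif4b, next to Krt18, differed by 0.31 in Id1KO_Zrf1KD minus Id1KO (adjusted p = 0.0014, limma), Tns2 (array name Tenc1) by 0.22 (adjusted p = 0.084, limma), Spryd3 by 0.62 and Igfbp6 by 0.98. Soat2 was lower, at -0.32. Near Krt7, Nr4a1 differed by 2.25 and Atg101 by 0.61 in that comparison, while Krt80, its direct neighbour, did not pass. Near Krt19, Krt17 and Krt42 were higher and Krt13, Krt14 and Krt16 did not pass (Krt13 and Krt14 passed under 2 other scalings each). Krt79, on the other side of Krt8, differed by 0.81. Of 16 tested neighbours, up to 5 protein-coding genes to each side and the 4 keratins left out, 8 were higher and 1 lower in Id1KO_Zrf1KD than in Id1KO, and 1 was higher and 11 lower in Id1KO than in WT. Of all genes, 32.3% were higher and 39.8% lower in the first comparison, and 42.5% higher and 29.6% lower in the second. Krt13, Krt14, Krt16, Krt17, Krt42, Krt79, Krt80 and Krt81 are among these neighbours and were already counted with the other keratins.

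Promoter sequence from RefSeq (GRCm38.p6) was available for Krt7, Krt8 and Krt18, and is shown because these genes were called in the same direction in 2 comparisons. The windows are chr15:101412153-101412412 (plus strand) for Krt7, chr15:102004333-102004592 (minus strand) for Krt8 and chr15:102027966-102028225 (plus strand) for Krt18, each 260 bases that end 10 bases past the annotated start. Capitals mark matches, on either strand, to 4 short motifs. The core promoter motif was searched as TATAAA and the GC box, the site of Sp1 proteins, as GGGCGG. The site of TFAP2 factors was searched as GCCNNNGGC. The AP-1 site was searched as TGANTCA.
Krt7: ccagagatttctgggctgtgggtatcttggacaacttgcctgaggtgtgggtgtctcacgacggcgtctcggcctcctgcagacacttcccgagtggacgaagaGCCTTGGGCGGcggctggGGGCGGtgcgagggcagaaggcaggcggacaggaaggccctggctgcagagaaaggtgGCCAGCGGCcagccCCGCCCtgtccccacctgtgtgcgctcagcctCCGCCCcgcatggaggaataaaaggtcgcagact
Krt8: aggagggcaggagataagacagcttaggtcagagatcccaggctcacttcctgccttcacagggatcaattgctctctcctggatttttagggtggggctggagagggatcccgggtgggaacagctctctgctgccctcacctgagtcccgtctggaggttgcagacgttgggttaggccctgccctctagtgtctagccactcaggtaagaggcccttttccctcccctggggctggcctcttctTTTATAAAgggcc
Krt18: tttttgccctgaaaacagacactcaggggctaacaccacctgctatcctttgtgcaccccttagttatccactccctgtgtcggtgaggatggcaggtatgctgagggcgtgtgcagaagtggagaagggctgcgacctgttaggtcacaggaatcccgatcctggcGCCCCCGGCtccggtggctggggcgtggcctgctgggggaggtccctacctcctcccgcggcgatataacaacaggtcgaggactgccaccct
The search covered 300 bases, 40 of them not printed. Krt7 held 4 GC boxes and 2 TFAP2 matches, 1 of which overlaps a GC box, in a window of 66.3% GC. Krt8 held a TATAAA on each strand, overlapping each other on the annotated start, in 58.0% GC. Krt18 held 1 TFAP2 match in 61.3% GC, and the median over all promoters was 52.7%. None of the 3 windows held the AP-1 site, which 7.81% of 32851 promoters of that length hold. TATAAA was in 13.6% of these promoters, GGGCGG in 35.7% and GCCNNNGGC in 16.6%. CANNTG (an E-box, the site of basic helix-loop-helix factors, not capitalised) was found 1 time in Krt7, 3 times in Krt8 and 1 time in Krt18, and in 72.3% of all promoters.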

How the data were processed

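RNA of 3 groups of 4 samples was labelled with Cy3 and hybridised to 12 Agilent arrays. The labels call the samples of a group independent. Per the file headers, Agilent Feature Extraction 10.7.3.1 gave each spot's intensity as a background-subtracted signal within its array, with other columns holding 0 or 1 flags. The authors also deposited log2 values, with a median of 6.55 on every array, and their normalization is not given here. Probe coordinates are build mm9, per the files.

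The level of a probe is log2 of the processed signal minus the array's 75th percentile over non-control spots, averaged over spots without outlier flags. Probes well above background on at least 50% of spots on all 4 arrays of a group were kept. Each gene was represented by its brightest probe. The test was that of limma 3.58.1 (R 4.3.3, data.table version 1.17.8), with 1 mean per group over 12 arrays, two-sided, Benjamini-Hochberg adjusted over 22593 genes, threshold 0.05. The fit was tested on simulated data. Type II minus type I differences were tested by exact permutation.

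The keratins and the gene lists were chosen with earlier results of these data known. Named were every keratin tested and, of each list, genes with the smallest adjusted p in Id1KO_Zrf1KD minus Id1KO or Id1KO minus WT, 4 for each. Neighbouring genes were added after their values were seen. Deviations of arrays with the same replicate number had a median correlation of -0.20 (-0.44 to 0.40), so the numbers were not taken as pairs. For arrays on the same slide it was 0.24, and slide as a block was an alternative. The number of arrays limits precision.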

Additional observations from a re-analysis of the deposited data

How the results depend on the processing

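No called difference of the 4 keratins or of their pairs changed direction in the alternatives run, and the numbers of all genes called stayed within 1.5 times the main ones. The uncalled pair differences Krt7 minus Krt19 in Id1KO_Zrf1KD minus WT and Krt8 minus Krt19 in Id1KO minus WT, both near 0, took either sign. Of 234 values of the named genes, 17 changed sign under normexp, quantile normalization or the deposited values, and 1 of these was called, Dppa5a in Id1KO minus WT. List counts that moved by over 1.5 times stand in the text beside them. Krt7 in Id1KO_Zrf1KD minus Id1KO lost its call with normexp (0.14, adjusted p = 0.17), with the replicate block (0.29, adjusted p = 0.062) and without Id1KO replicate 1, Id1KO_Zrf1KD replicate 1 or Id1KO_Zrf1KD replicate 4 (adjusted p = 0.076, 0.053 and 0.079), over a range of 0.22 to 0.36 when each array was left out. Krt18 in Id1KO minus WT (-0.13) lost its call with no filter on dim probes (-0.13, adjusted p = 0.0501), with the replicate block (-0.13, adjusted p = 0.056), with the 2 groups alone (-0.13, adjusted p = 0.060) and without WT replicate 3, Id1KO replicate 1 or Id1KO replicate 3 (adjusted p = 0.062, 0.064 and 0.057), over a range of -0.16 to -0.10, and was -0.0048 within slide 2. The replicate block changed no other call. Krt19 in Id1KO_Zrf1KD minus WT passed with quantile normalization (-0.19, adjusted p = 0.043), the deposited values (-0.20, adjusted p = 0.025) and slide as a block (-0.17, adjusted p = 0.0079), and Krt7 in that comparison with slide as a block (-0.20, adjusted p = 0.047). Within slide 2, Krt8 was 1.85 and Krt18 0.87 in Id1KO_Zrf1KD minus Id1KO, each further from the main value than the replicate spread. Among the pair differences, Krt7 minus Krt19 in Id1KO_Zrf1KD minus Id1KO passed with normexp (-0.49, exact test, adjusted p = 0.038) and Krt7 minus Krt18 in Id1KO minus WT with quantile normalization (-0.36, exact test, adjusted p = 0.043). Krt7 minus Krt19 in Id1KO minus WT no longer passed with quantile normalization (0.20, exact test, adjusted p = 0.11), nor did Krt8 minus Krt18 in Id1KO_Zrf1KD minus WT with the mean of a gene's probes (0.13, exact test, adjusted p = 0.10). Causes were not tested. Median scaling was added after the data were seen. Signal over background limits Krt7 most, with processed signals of 177 to 225 in Id1KO_Zrf1KD, 111 to 126 in Id1KO and 173 to 225 in WT.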
